A study of Rattus norvegicus with 6 samples.

Results

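The genes described here are the enzymes of the urea cycle and of ammonia handling in rat liver, taken by their symbols from a table of gene expression. They were Nags, Cps1, Otc, Ass1 and Asl of the urea cycle, and Gls2, Glud1 and Glul, which release or bind ammonia at glutamine and glutamate, 8 of 19616 genes in the table. The liver turns ammonia, which is toxic, into urea in periportal hepatocytes, the cells around the branches of the portal vein that blood reaches first. Ammonia that escapes this step is bound to glutamate as glutamine by Glul (glutamine synthetase) in a thin layer of pericentral hepatocytes around the central vein. The comparison therefore set the periportal urea cycle genes against pericentral Glul.

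RNA from whole liver tissue of 6 male SD rats was sequenced after removal of ribosomal RNA, with 1 library per rat. The 3 rats of the FL (fibrosis) group, FL2, FL5 and FL12, had been injected intraperitoneally with carbon tetrachloride (CCl4) mixed with olive oil, 2 mL/kg body weight, 2 times a week for 5 weeks. The 3 rats of the CL (control) group, CL5, CL6 and CL7, had been given olive oil alone in the same volume, and the age of the rats was not given in the sources used here. CCl4 is a solvent that pericentral hepatocytes turn into a reactive form, so that the injury starts beside the central vein, and whole tissue mixes hepatocytes of every zone with scar-forming and immune cells. The labelled tissue was borne out by hepatocyte markers. Alb (albumin) stood between 31431 and 33392 FPKM in the CL rats and between 24149 and 25209 FPKM in the FL rats, lower in every FL rat, with a log2 difference of -0.38 (SE 0.98, adjusted p = 0.804 from limma, described below, and 0.0789 to 0.952 over 15 alternative settings). limma draws each SE toward a trend of spread with level over all genes, so the SE of Alb is not its own spread between these rats. The direction of Alb turned with quantile normalization (0.49). Its share of the FPKM sum overlapped, at 9.23% to 10.8% in the CL rats and 7.81% to 9.26% in the FL rats. Of the 14 hepatocyte markers 0 passed in either direction, and Apoa1 passed as higher in 4 of 15 alternatives. In every FL rat 4 were lower (Alb, Ttr, Apoa2 and Apob) and 2 higher (Apoa1 and Tf) than in any CL rat. Among all genes tested the groups did not overlap in 40.5%. The count is near that share and is no result about the markers.

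Expression was given as FPKM, in which the fragments sequenced from a gene are scaled to transcript length and to library size, so that levels of different genes can be set side by side. Values of single rats are listed in the order CL5, CL6, CL7 and FL2, FL5, FL12. FPKM summed to 309425, 340467 and 315259 in CL5, CL6 and CL7, and to 309226, 272350 and 272110 in FL2, FL5 and FL12. The number of reads behind a value is unknown. The U6 genes, short RNA genes of similar length, had low values that came in steps, which put the depth of the libraries relative to the deepest, CL5, at 0.656 in CL6, 0.84 in CL7, 0.677 in FL2, 0.75 in FL5 and 0.677 in FL12. The 8 genes together held 0.577%, 0.515% and 0.564% of the FPKM sum in the CL rats and 0.495%, 0.73% and 0.489% in the FL rats. Differences between groups are given as FL minus CL on the scale of log2(FPKM + 0.1), which understates the change of genes with low FPKM, with limma's standard error (SE) and its p adjusted by the Benjamini-Hochberg method over the 14864 genes that averaged at least 0.1 FPKM in the 6 rats.

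Of the 8 genes, 1 passed an adjusted p of 0.05 as higher in the FL group (Glul) and 0 as lower, with limma over 3 rats against 3; 2 genes (Otc and Glul) had an unadjusted p under 0.05. Over all genes tested, 16.9% passed as higher and 1.94% as lower. With a fold change of at least 2 required as well, which defines a differentially expressed gene (DEG) here, 0 of the 8 were called, against 9.29% of all genes upregulated and 0.935% downregulated. In 3 of the 8 (Otc, Ass1 and Glul) the FL rats and the CL rats did not overlap, as in 40.5% of all genes. These counts lie near the shares among all genes and are no result about the 8 genes. The difference was above 0 in 5 genes and below 0 in 3, with a median of 0.16 on the log2 scale, against 0.29 for all genes tested. That median of all genes was 0.08 after median scaling of the rats, -0.04 after quantile normalization and 0.32 after scaling to the hepatocyte markers, so differences are also given relative to it. In whole tissue, fewer cells of a type and less RNA per cell cannot be told apart.

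**Figure D1:**
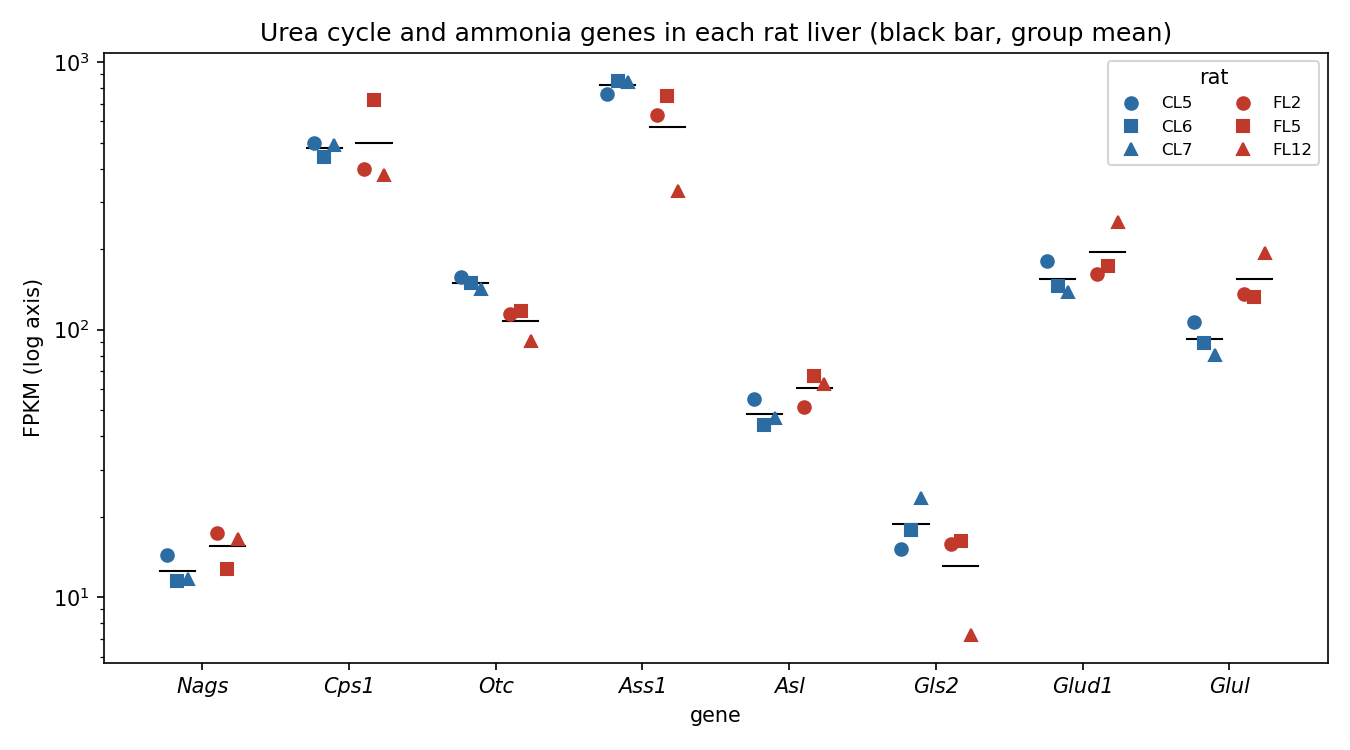
FPKM of the 8 genes (log axis) in each rat liver, with CL rats in blue, FL rats in red, a symbol for each rat and a black bar at the group mean (n = 3 rats each). The FL rats lie below the CL rats for Otc and Ass1 and above them for Glul, and the groups overlap for the other 5 genes.

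Nags makes N-acetylglutamate, the activator without which Cps1 does not work, and was the least abundant gene of the cycle. Nags (ENSRNOG00000020879, chromosome 10) read 14.3, 11.5 and 11.7 FPKM for the CL rats and 17.4, 12.8 and 16.5 FPKM for the FL rats. FL2 and FL12 lay above every CL rat and FL5 lay inside their range, so the groups overlapped. The groups differed by 0.31 on the log2 scale (SE 0.15, adjusted p = 0.191 from limma), or 0.02 above the median of all genes, and 0.16 above it with quantile normalization. Single rats turned this direction, since relative to that median Nags was at -0.11 without FL2, -0.07 without CL6 and -0.002 without CL7.

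Cps1, carbamoyl phosphate synthetase of the mitochondria, joins ammonia to bicarbonate and starts the cycle. Cps1 (ENSRNOG00000013704, chromosome 9) read 497, 444 and 489 FPKM for the CL rats and 398, 719 and 379 FPKM for the FL rats. FL5 was the highest of the 6 rats and the other FL rats were the lowest, so that the FL rats lay on both sides of the CL rats. The coefficient of variation was 38.3% in the FL group against 6.04% in the CL group. The group means were 477 ± 28.8 and 499 ± 191 FPKM (SD, n = 3 rats each), and the log2 difference was 0.00 (SE 0.27, adjusted p = 0.995 from limma). Its 95% interval ran from -0.62 to 0.62, so with 3 rats a group a true difference within those bounds is not excluded. The sign of this difference turned in 3 of 15 alternative settings, among them median scaling (-0.22) and leaving out FL5 (-0.29). Relative to the median of all genes it was -0.29, but 0.25 with quantile normalization.

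Otc, ornithine transcarbamylase, joins carbamoyl phosphate to ornithine in the mitochondria and gives citrulline. Otc (ENSRNOG00000003370, chromosome X) read 158, 149 and 141 FPKM for the CL rats and 115, 117 and 90.7 FPKM for the FL rats. Every FL rat lay below every CL rat, and FL12 was the lowest. The log2 difference was -0.48 (SE 0.15, adjusted p = 0.054 from limma), which misses the threshold, and -0.77 relative to the median of all genes, or -0.39 with quantile normalization. With median scaling the difference was -0.71 (adjusted p = 0.0279) and without FL2 it was -0.53 (adjusted p = 0.0438), and both passed; over the 15 alternatives, limma's adjusted p ran from 0.0279 to 0.191.

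Citrulline leaves the mitochondria, and the remaining steps take place in the cytosol. Ass1, argininosuccinate synthetase, adds aspartate to citrulline and was the most abundant of the 8 genes in the CL rats. Ass1 (ENSRNOG00000008837, chromosome 3) read 759, 852 and 845 FPKM for the CL rats and 636, 750 and 329 FPKM for the FL rats. The groups did not overlap, but FL5 lay just below CL5, while FL12 stood far below the rest. The log2 difference was -0.60 (SE 0.32, adjusted p = 0.214 from limma), and it was -0.24 without FL12. Relative to the median of all genes it was -0.89, or -0.43 with quantile normalization and -0.50 without FL12.

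Asl, argininosuccinate lyase, splits the product of Ass1 into arginine and fumarate. Asl (ENSRNOG00000000903, chromosome 12) read 54.9, 44.0 and 46.7 FPKM for the CL rats and 51.2, 67.3 and 62.6 FPKM for the FL rats. FL5 and FL12 lay above every CL rat, and FL2 lay below CL5. The log2 difference was 0.31 (SE 0.15, adjusted p = 0.169 from limma), or 0.02 above the median of all genes, and 0.30 above it with quantile normalization. Relative to that median it turned to -0.07 without CL6 and to -0.04 without FL5.

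The genes of ammonia handling outside the cycle come next. Gls2, the glutaminase of periportal hepatocytes, frees ammonia from glutamine beside Cps1. Gls2 (ENSRNOG00000031612, chromosome 7) read 15.1, 17.8 and 23.5 FPKM for the CL rats and 15.9, 16.2 and 7.23 FPKM for the FL rats. FL12 was far below the other rats, while FL2 and FL5 lay between CL5 and CL6. The log2 difference was -0.58 (SE 0.31, adjusted p = 0.219 from limma), and it was -0.21 without FL12. Relative to the median of all genes it was -0.87, or -0.73 with quantile normalization and -0.47 without FL12.

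Glud1, glutamate dehydrogenase, frees or binds ammonia at glutamate in the mitochondria. Glud1 (ENSRNOG00000057367, chromosome 16) read 181, 145 and 138 FPKM for the CL rats and 161, 173 and 252 FPKM for the FL rats. FL12 was the highest rat, and FL2 and FL5 lay inside the range of the CL rats. FL minus CL came to 0.32 on the log2 scale (SE 0.21, adjusted p = 0.304 from limma), or 0.03 above the median of all genes. Against that median it was 0.44 with quantile normalization and -0.14 without FL12.

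Glul, glutamine synthetase, binds ammonia to glutamate and was the gene that passed the test. Glul (ENSRNOG00000049560, chromosome 13) read 107, 89.1 and 80.7 FPKM for the CL rats and 135, 133 and 194 FPKM for the FL rats. Every FL rat lay above every CL rat, and FL12, the rat with the lowest Cps1, Otc, Ass1 and Gls2, had the highest Glul. The group means were 92.1 ± 13.2 and 154 ± 34.4 FPKM (SD, n = 3 rats each). Glul rose by 0.73 on the log2 scale (SE 0.19, adjusted p = 0.0344 from limma), a fold change of 1.66, which is under the 2-fold limit for a DEG; relative to the median of all genes the difference was 0.44, and it was 0.83 with quantile normalization and 0.29 without FL12. The call was lost in 9 of 15 alternatives, in which the adjusted p ran up to 0.126, and the difference stayed above 0 in all 15 (0.50 to 0.84). It was lost with median scaling (0.50, adjusted p = 0.106) and with scaling to the hepatocyte markers (0.76, adjusted p = 0.0597), and on leaving out any of CL5, CL6, CL7, FL5 and FL12.

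**Figure D2:**
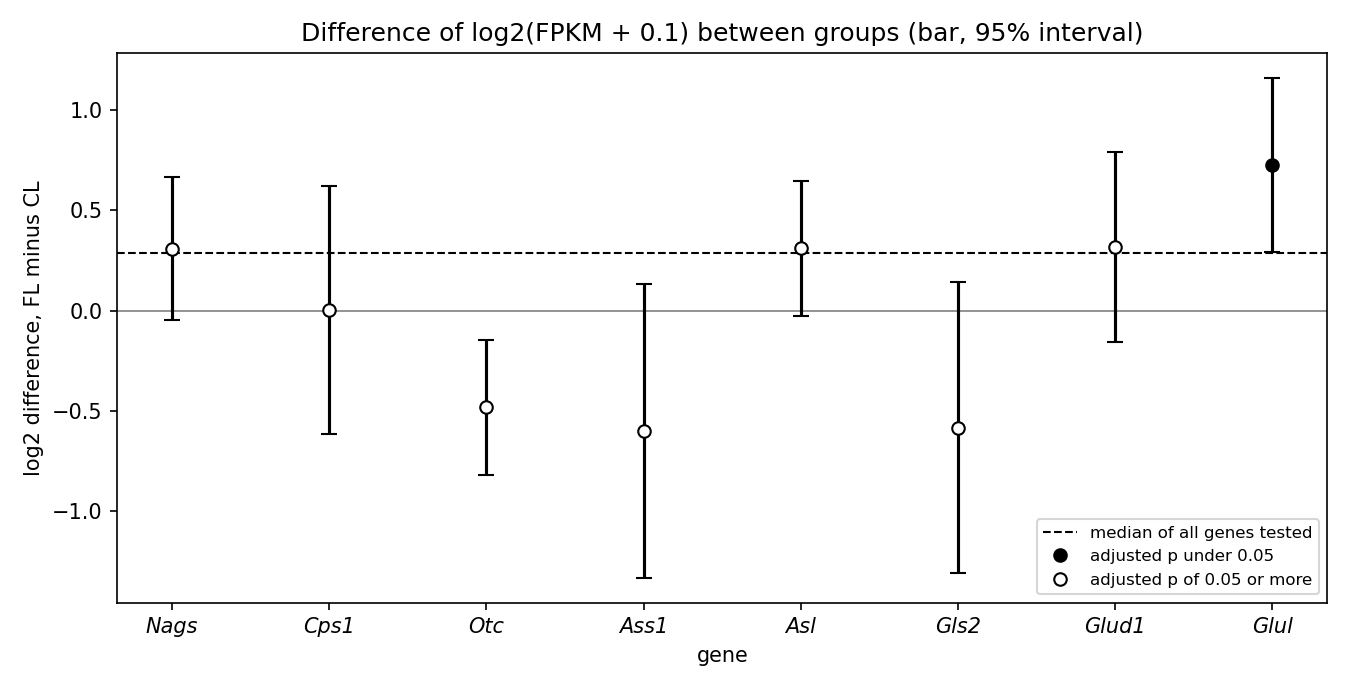
Difference of log2(FPKM + 0.1) between the FL and the CL group for each of the 8 genes (points) with its unadjusted 95% interval from limma (bars; n = 3 rats each), filled where the adjusted p is under 0.05. The dashed line is the median of all genes tested, 0.29; Glul at 0.73 is the filled point, and Otc, Ass1 and Gls2 lie lowest.

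In the CL rats the order of the levels was Ass1, Cps1, Glud1 and Otc, Glul, Asl, Gls2 and Nags. The values of Glud1 (138 to 181 FPKM) and Otc (141 to 158 FPKM) overlapped, and the other neighbours in this order were apart in every CL rat. In the FL rats the ranges of Ass1 (329 to 750 FPKM) and Cps1 (379 to 719 FPKM) overlapped, and so did those of Glud1 (161 to 252 FPKM) and Glul (133 to 194 FPKM) and those of Nags (12.8 to 17.4 FPKM) and Gls2 (7.23 to 16.2 FPKM). Otc stood above Glul in each CL rat and below Glul in each FL rat. Gls2 stood above Nags in each CL rat and below it in FL2 and FL12.

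The FL rats also differed among themselves. FL5 had the highest value of its group in 5 of the 8 genes (Cps1, Otc, Ass1, Asl and Gls2), and FL12 the lowest in 4 (Cps1, Otc, Ass1 and Gls2). In the CL group CL5 was likewise the highest in 6 of the 8 genes (Nags, Cps1, Otc, Asl, Glud1 and Glul). Within the FL group the coefficient of variation of Ass1 was 38% and that of Gls2 38.8%, against 6.33% and 22.9% in the CL group. Summed over these 5 urea cycle genes (Nags, Cps1, Otc, Ass1 and Asl), the level was 1483, 1501 and 1534 FPKM for the CL rats and 1218, 1666 and 878 FPKM for the FL rats. FL5 lay above all CL rats in this sum, and FL2 and FL12 lay below them.

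Because Glul and the other genes were measured in the same library, the ratio of each gene to Glul does not depend on a factor applied to a whole library. For Otc, the FPKM ratio to Glul was 1.48, 1.67 and 1.75 in CL5, CL6 and CL7, and 0.846, 0.881 and 0.468 in FL2, FL5 and FL12. For Ass1 it was 7.12, 9.56 and 10.5 in the CL rats and 4.70, 5.64 and 1.70 in the FL rats. For Cps1 it was 4.66, 4.98 and 6.07 in the CL rats and 2.94, 5.41 and 1.96 in the FL rats. The ratio of Otc and of Ass1 was lower in every FL rat than in any CL rat, whereas that of Cps1 overlapped, since FL5 lay between CL6 and CL7.

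On the log2 scale all 7 ratios to Glul were lower on average in the FL group. This follows by arithmetic, because the difference of Glul (0.73) was above those of the 7 genes, the next being Glud1 (0.32). The 7 ratios share Glul as denominator, so their common direction restates the difference of Glul. Of the 7 ratios, 5 did not overlap between the groups. Among all other genes tested, 36.4% also had a lower ratio to Glul without overlap. The differences were -1.33 for Ass1, -1.31 for Gls2, -1.21 for Otc, -0.42 for Nags and -0.41 for Glud1, each with p = 0.1 in a two-sided exact permutation test over 20 assignments of the 6 rats. The median difference of all other genes tested was -0.44, so the ratios of Nags and Glud1 lay near that of the median gene. Without FL12 the differences were -0.80 for Ass1, -0.76 for Gls2, -0.92 for Otc and -0.29 for Nags, and with quantile normalization that of Nags was -0.67. With all 6 rats, 0.1 is the smallest p which 3 rats against 3 can give, so no ratio could pass 0.05, and 7 ratios were tested. Nags was apart by a narrow margin, with a log2 ratio of -2.95 in both CL6 and FL2. The ratios of Cps1 (-0.73, p = 0.3, exact permutation test) and Asl (-0.42, p = 0.2, exact permutation test) overlapped. That of Asl also lay near the median gene. Without FL12 these differences were -0.38 and -0.27, and without FL5 they were -1.12 and -0.59. Glud1 was the least scattered, at 0.77, 0.71 and 0.78 in the CL rats and 0.25, 0.38 and 0.38 in the FL rats. The mean log2 ratio of the 5 urea cycle genes to Glul was 0.35, 0.47 and 0.65 in CL5, CL6 and CL7, and -0.16, 0.08 and -0.91 in FL2, FL5 and FL12, with group means of 0.49 ± 0.15 and -0.33 ± 0.51 (SD, n = 3 rats each), a difference of -0.82 given without a test. This difference includes that of Glul itself, 0.73, and the median for all other genes was -0.44. The 5 urea cycle genes themselves went both ways, from -0.60 (Ass1) to 0.31 (Asl). The direction of the mean ratio was kept in all alternatives tried, and without FL12 its difference was -0.53. In each of these alternatives the difference of Glul was above those of the 7 other genes, so this direction could not turn.

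**Figure D3:**
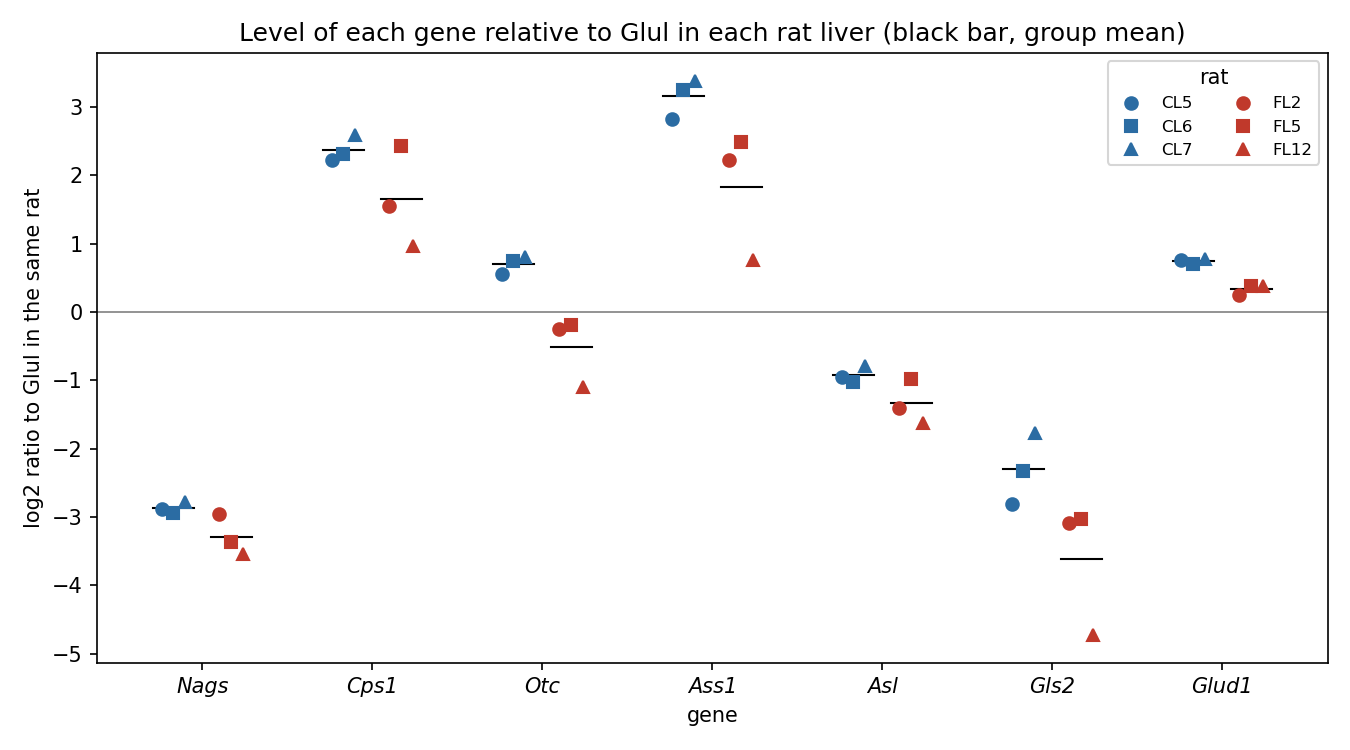
Log2 ratio of each of the 7 other genes to Glul in the same rat liver (CL rats in blue, FL rats in red, black bar at the group mean, n = 3 rats each; the line at 0 marks a level equal to that of Glul). The FL rats lie below the CL rats for 5 genes, narrowly for Nags, and the groups overlap for Cps1 and Asl, where the FL rat inside the CL range is FL5.

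Carriers and helpers bring the substrates of these enzymes into hepatocytes and mitochondria. Of 17 such genes tested, 2 passed as higher in the FL group and 0 as lower, with a median log2 difference of 0.23, against 0.29 for all genes. The count is near the 16.9% of all genes that passed as higher and is no result about these genes. Both the median and the count depended on the scaling and on single rats, with medians of 0.01 with median scaling, -0.02 with quantile normalization and 0.11 without FL12; relative to all genes the median was -0.05, and -0.18 without FL2. With median scaling 1 passed as higher (Rhbg) and 2 as lower. The 2 were Slc25a13, a mitochondrial carrier of aspartate and glutamate (-0.70, adjusted p = 0.0464 from limma), and Slc7a2, a carrier of arginine (-0.82, adjusted p = 0.0368 from limma). Without FL5 or without FL12 0 passed in either direction. Without FL2, 3 passed as higher (Slc7a1, Rhbg and Slc1a5) and 1 as lower (Slc25a13). Rhbg, an ammonia channel of pericentral hepatocytes, read 1.5, 1.77 and 0.52 FPKM for the CL rats and 3.69, 5.51 and 7.15 FPKM for the FL rats. Rhbg thus stood higher in every FL rat, and rose by 2.13 on the log2 scale (SE 0.42, adjusted p = 0.0146 from limma), a call kept in 13 of 15 alternatives. Slc1a5, a glutamine carrier, was low, at 0.19 to 0.36 FPKM for the CL rats and 0.53 to 0.91 FPKM for the FL rats, with a log2 difference of 1.20 (adjusted p = 0.0372 from limma), kept in 5 of 14 alternatives.

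Among 15 enzymes that feed nitrogen into the cycle or draw on its arginine and ornithine, 2 passed as higher and 0 as lower, with a median log2 difference of 0.02, against 0.29 for all genes. This count too is near the share among all genes and is no result about the list. That median was -0.21 with median scaling, where 1 passed as higher (Pycr1) and 2 as lower (Prodh, -0.85, adjusted p = 0.0488, and Gcsh, -0.50, adjusted p = 0.0394, from limma), and -0.06 with quantile normalization, where 0 passed in either direction; with a rat left out it ran from -0.04 (without FL5) to 0.18 (without FL2). Without FL2 Prodh and without CL6 Oat passed as lower beside Odc1 and Pycr1 as higher, and without CL5, CL7 or FL5 the gene that passed was Odc1. Odc1, ornithine decarboxylase of polyamine synthesis, read 5.04, 5.03 and 5.33 FPKM for the CL rats and 7.93, 7.46 and 9.43 FPKM for the FL rats. Odc1 rose by 0.67 on the log2 scale (adjusted p = 0.0131 from limma), kept in 12 of 15 alternatives. Pycr1, which makes proline, rose from 0.750 ± 0.399 to 2.87 ± 1.17 FPKM (SD, n = 3 rats each), by 1.82 on the log2 scale (adjusted p = 0.0176 from limma), kept in 11 of 15. Both enzymes lie on routes that use ornithine or its products outside the cycle. Of 13 gene rows of regulators, 0 passed as higher and 1 as lower, against 16.9% and 1.94% of all genes tested. A count of 1 is no result about the list. Foxa2 also passed as lower with hepatocyte scaling, without CL5 and without FL2, and Ppargc1a passed as higher without CL5. Crem, a modulator of cAMP-driven transcription, read 6.27, 7.11 and 7.06 FPKM for the CL rats and 3.82, 4.04 and 3.28 FPKM for the FL rats, and fell by 0.86 on the log2 scale (adjusted p = 0.00686 from limma), kept in all 15 alternatives.

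The zones of the lobule were also read from other genes. Of 16 periportal gene rows besides the urea cycle, 0 passed as higher and 4 as lower in the FL group. The shares among all genes tested were 16.9% and 1.94%. The median log2 difference of the list was -0.08, or -0.37 relative to all genes. Single rats moved that median, which was 0.03 without CL6, 0.03 without FL12 and -0.39 without FL5. Relative to all genes it was -0.29, -0.23 and -0.66 there, and -0.15 with quantile normalization. The median of the 14 hepatocyte markers was likewise -0.35 relative to all genes. For these markers it was -0.64 without FL2 and 0.30 with quantile normalization. Without CL7, 2 passed as lower (Uroc1 and Cyp2f4), and without FL2, 2 passed as higher (Tat and Aldh1b1) and 3 as lower. Uroc1 and Hal, which act in sequence in the breakdown of histidine, fell by 0.92 (adjusted p = 0.00911 from limma) and 0.96 (adjusted p = 0.0347 from limma) on the log2 scale. Igf1, a growth factor secreted by hepatocytes, fell by 0.91 (adjusted p = 0.0119 from limma), and Cyp2f4, a cytochrome P450, by 0.73 (adjusted p = 0.00689 from limma). Hal stood at 58.6, 51.1 and 49.0 FPKM in the CL rats and at 22.8, 41.7 and 20.6 FPKM in the FL rats, with FL5 the highest FL rat as for Cps1, Otc and Ass1; its call was kept in 8 of 15 alternatives.

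Of 19 pericentral genes besides Glul, 7 passed as higher and 1 as lower, against 16.9% and 1.94% of all genes. Their median was 0.53 on the log2 scale, or 0.25 relative to all genes. Relative to all genes the median was close to 0 without FL12 (0.03) and with a mean of at least 1 FPKM required (0.03), and small with a pseudocount of 1 (0.08) and without CL7 (0.09), while it was 0.43 with quantile normalization and 0.38 without CL5. The 7 were Rhbg, Rnf43, Axin2, Tbx3, Nkd1, Sp5 and Cyp7a1, and Notum was the gene that passed as lower (-0.49, adjusted p = 0.024 from limma), a call kept in 8 of 15 alternatives. Rnf43 and Axin2, both targets and inhibitors of the Wnt pathway that maintains the pericentral zone, rose by 1.42 (adjusted p = 0.00509 from limma) and 0.86 (adjusted p = 0.0126 from limma). Notum, also a target and inhibitor of that pathway, went the other way. The call of Rnf43 was kept in all 15 alternatives and that of Axin2 in 11. Axin2 lost it with hepatocyte scaling and with quantile normalization, among others. Cyp7a1, the rate-limiting enzyme of bile acid synthesis, rose by 1.80 (adjusted p = 0.0134 from limma), and Tbx3 by 1.32 (adjusted p = 0.0176 from limma, kept in 11 of 15 alternatives). The calls of Nkd1 (1.14, adjusted p = 0.0365 from limma) and Sp5 (1.60, adjusted p = 0.0361 from limma) were kept in 5 of 15 and 6 of 14 alternatives, with adjusted p up to 0.133 and 0.187, and both were lost with median scaling and with quantile normalization. In this list 2 genes passed as higher without CL7 (Rhbg and Rnf43) and 2 without FL5 (Cyp7a1 and Rnf43), while 4 passed without FL12 and 3 with quantile normalization; with median scaling Ahr also passed as lower (-0.96, adjusted p = 0.0449 from limma). Cyp2e1, the most abundant gene of the list, which turns CCl4 into its reactive form, read 705, 535 and 601 FPKM for the CL rats and 549, 720 and 888 FPKM for the FL rats, and the groups overlapped. The median of the 5 urea cycle genes relative to all genes was -0.29, which is the value of Cps1. Nags and Asl each stood at 0.02, and Otc and Ass1 at -0.77 and -0.89, so the 5 genes did not share a shift. The median was -0.30 after median scaling and -0.29 after hepatocyte scaling, but 0.16 after quantile normalization. Without FL12 it was -0.09 and without FL5 -0.57.

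Markers of some other cell types differed between the groups, and their part in the result was not tested. For comparison, 16.9% of all genes tested passed as higher and 1.94% as lower. The counts of cholangiocyte and lymphocyte markers are near or below these shares and are no result. Relative to all genes the median difference was 1.99 for stellate cell, 0.45 for macrophage and 1.23 for cycling markers. It was 0.06 for cholangiocyte, 0.02 for endothelial and 0.48 for lymphocyte markers (0.00 with a pseudocount of 1). Of 9 stellate cell and myofibroblast markers tested, 6 passed as higher (Col1a1, Col3a1, Pdgfrb, Des, Dcn and Lum), and the list summed to 73.1, 80.1 and 74.4 FPKM in the CL rats and to 199, 541 and 494 FPKM in the FL rats, most of it Col3a1. Of 11 macrophage markers 6 passed as higher (Cd68, Csf1r, Marco, Lyz2, C1qa and C1qb, the last 2 kept in 5 and 7 of 15 alternatives). The list summed to 193, 180 and 182 FPKM for the CL rats and to 397, 402 and 254 FPKM for the FL rats. Clec4f had the highest mean in the CL rats (47.15 FPKM) and Cd5l in the FL rats (55.5 FPKM, against 50.1 for Clec4f). FL12, with the highest Glul, had the lowest macrophage sum of the FL rats. Of 7 cholangiocyte markers 1 passed (Spp1), with 0 without CL7 and Cftr beside Spp1 without FL2. The list summed to 10.3 to 16 FPKM for the CL rats and 19.1 to 75.0 FPKM for the FL rats. Spp1 was the most abundant in the FL rats, and Epcam had the highest mean in the CL rats (4.90 FPKM, against 1.31 for Spp1). Of 6 endothelial markers 2 passed as higher (Stab2, and Vwf, kept in 6 of 15 alternatives), and 0 without CL7. Their sums were 64.8 to 73.7 and 75.5 to 88.9 FPKM. Kdr had the highest mean in the CL rats (21.7 FPKM) and Lyve1 in the FL rats (21.3 FPKM, against 19.0 for Kdr). Of 7 lymphocyte markers 0 passed (1, Cd79a, without FL12). The list summed to 1.99 to 2.86 and 2.61 to 6.64 FPKM, and Ms4a1 stood at 0 in CL5. Nkg7 had the highest mean in the CL rats (0.60 FPKM) and Cd8a in the FL rats (1.31 FPKM). Of 6 markers of cycling cells 2 passed as higher (Mki67, the most abundant, kept in 4 of 15 alternatives, and Birc5), with sums of 2.49 to 4.71 and 4.18 to 19.5 FPKM. All 6 of these passed as higher without FL2, and 0 without CL5, CL7, FL5 or FL12 or with quantile normalization. The hepatocyte markers summed to 65060, 61499 and 62487 FPKM in the CL rats and to 65569, 53751 and 53667 FPKM in the FL rats.

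Genes that follow the hour of the day differed between the groups as well, and their part in the result was not tested; the hour of sampling is not given in the sources used here and cannot be told apart from the treatment. Of 15 clock genes, 9 passed as higher (Dbp, Per2, Per3, Nr1d1, Nr1d2, Ciart, Tef, Hlf and Bhlhe41) and 4 as lower (Arntl, Npas2, Cry1 and Nfil3). Among all genes tested the shares were 16.9% and 1.94%. The calls of Hlf and Nfil3 were kept in 8 and 9 of 15 alternatives. Dbp read 0.46, 0.91 and 0.81 FPKM for the CL rats and 25.6, 27.1 and 31.8 FPKM for the FL rats (log2 difference 5.13, adjusted p = 0.000126 from limma). Mup5, a urinary protein gene, took 8.06%, 14.3% and 11.6% of the FPKM sum in the CL rats and 0.0178%, 0.0768% and 0.0121% in the FL rats, and its part in the result was not tested either.

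The 3 genes whose profile over the 6 rats was nearest to that of Cps1, out of 3027 genes that averaged at least 10 FPKM, were Cth, Tas1r2 and Smap1, with root mean square differences of 0.07, 0.17 and 0.18 between profiles on the log2 scale, each centred on its mean. Cth, cystathionine gamma-lyase, an enzyme of sulfur amino acids, read 86.8, 79.2 and 94.7 FPKM for the CL rats and 77.6, 125 and 70.4 FPKM for the FL rats. As with Cps1, FL5 was the highest and FL12 the lowest of the 6 rats. Nearest to Glul were Impdh2, Gnb2l1 and LOC100360117, at 0.07, 0.09 and 0.09. Impdh2, an enzyme of guanine nucleotide synthesis, read 11.2, 10.6 and 8.50 FPKM for the CL rats and 13.7, 14.9 and 20.7 FPKM for the FL rats, and FL12 was again the highest. Among the 8 genes themselves, Ass1 and Gls2 were the nearest pair (0.16).

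Promoters were read to show the sequence in front of the genes. RefSeq (build GRCr8) held the 250 bases before the start for all 8 genes at 10 starts. The letters CAAAGTCCA, a form of the site of HNF4 (a hepatocyte transcription factor), were in Cps1 and in 0.338% of all 33469 promoters, and CTTTGAT, a form of the site of TCF/LEF (which carry the Wnt signal), in Otc, in 1 of the 2 starts of Glul and in 3.15% of all promoters. The letters TTGCNNAA (C/EBP, 9.22% of promoters) and TGACGTCA (CREB, 1.59%) were in none of the 10. Both strands were searched, the motifs were chosen after sequences and expression values had been seen, and a match is a description of the letters. The stretches with a match are printed 5′ to 3′ on the strand of the gene with the match in capitals, for Cps1 (chr9:76063753-76063862, plus strand, bases -110 to -1 from the start), Otc (chrX:15202474-15202583, minus strand, -110 to -1) and Glul (chr13:68519250-68519359, plus strand, -250 to -141). These 3 of the 8 genes are shown because they held a match; in Cps1 and Glul the capitals are the motif read from the other strand.
Cps1: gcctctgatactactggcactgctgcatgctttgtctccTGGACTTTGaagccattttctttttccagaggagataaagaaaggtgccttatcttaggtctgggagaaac
Otc: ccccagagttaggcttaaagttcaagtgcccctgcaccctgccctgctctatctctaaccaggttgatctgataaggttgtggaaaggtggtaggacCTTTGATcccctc
Glul: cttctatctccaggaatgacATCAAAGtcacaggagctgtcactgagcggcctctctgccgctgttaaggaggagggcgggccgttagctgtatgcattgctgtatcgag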

How the data were processed

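Liver RNA of 3 FL and 3 CL rats was compared, grouped by their labels. Per the paper's methods, the authors trimmed the reads, mapped them by TopHat2, kept unique positions and deposited FPKM, without stated scaling between rats; the values in the table have 2 decimals. The submitters' processing notes name GRCh38, whereas the gene identifiers are Ensembl's for the rat. Read counts were not used here, so limma on log2(FPKM + 0.1), with a variance trend, replaced the edgeR test of the study over genes averaging at least 0.1 FPKM. Without counts, the error given rests on the spread between rats alone. limma draws the SE of each gene toward a trend of that spread with level over all genes. A further 2 value columns that match no sample were not used. Between 0.866% and 2.54% of values above 0 were identical within a pair of rats.

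Ratios to Glul were compared by two-sided exact permutation. The genes named were the 8 members, the genes of each list that passed (otherwise the most abundant), and the 3 genes nearest to Cps1 and to Glul. Others were named after their values were seen. These were Cyp2e1, Mup5, Ms4a1, some list genes called in an alternative alone, and the markers of each cell type with the highest group mean. The members and lists were chosen with earlier results of these data known; 1 further gene of the rule and 3 genes of the lists are not reported here, and counts, sums and means leave them out. Rhcg, Slc38a5, Aldh18a1, Col1a2 and Ms4a1 fell below the filter, and Aldh4a1, Nos2, Znrf3 and Pecam1 had no row of that symbol. G6pc and Nr3c1 each had 2 rows. As alternatives, the pseudocount was 1 or 0.01 and the filter was dropped or raised to 1 FPKM; others were median scaling over 9201 genes above 1 FPKM in every rat, quantile normalization, scaling to hepatocyte markers, a limma fit with no trend, a robust prior, no fold limit, and each rat left out. The limma step was tested on simulated data. Versions were limma 3.58.1 in R 4.3.3, and scipy 1.17.1, pandas 2.3.3, matplotlib 3.10.9 and numpy 2.4.6 in Python 3.11.15.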

Additional observations from a re-analysis of the deposited data

How the results depend on the processing

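With limma, Glul was higher in all 15 alternatives and passed in 6. The count of the 8 genes that passed as higher was 0 in place of 1 with hepatocyte scaling (log2 difference of Glul 0.76, adjusted p = 0.0597), median scaling (0.50, adjusted p = 0.106), no filter (0.73, adjusted p = 0.053) and no trend (0.73, adjusted p = 0.0635). With a rat left out the difference of Glul ran from 0.55 to 0.84 and the count was 0 or 1, being 0 without CL5 (adjusted p = 0.0507), CL6 (0.0985), CL7 (0.126), FL12 (0.0736) or FL5 (0.0602). The count that passed as lower was 1 in place of 0, which was Otc, with median scaling (-0.71) and without FL2 (-0.53), and ran from 0 to 1 with a rat left out.

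The difference of Cps1 changed sign with median scaling (-0.22), without CL6 (-0.05) and without FL5 (-0.29), running from -0.29 to 0.17 with a rat left out. The other 7 genes kept their sign in all 15 alternatives. The 7 ratios to Glul and the mean ratio of the urea cycle (-1.02 to -0.53) stayed below 0 in the 9 alternatives tried for them. This follows by arithmetic, because the difference of Glul was above those of the other 7 genes in each of the 9. The cause of these shifts was not tested.

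Among all genes, 1381 DEGs were upregulated and 139 downregulated. There were 854 upregulated with a mean of at least 1 FPKM, 826 with median scaling, 462 with a pseudocount of 1, 453 with quantile normalization and 2518 with no fold limit. There were 72 downregulated with a pseudocount of 1, 231 with quantile normalization and 288 with no fold limit. With a rat left out, upregulated DEGs ran from 740 (without CL7) to 1831 and downregulated ones from 81 (without CL6 or CL7) to 160; without FL5, 745 were upregulated. No paired analysis was possible because the rats were divided into the groups at random. The replicate number that the groups share, 5, does not make a pair. With 3 rats a group, Cps1, Ass1 and Gls2, which scattered most among FL rats, are the least settled.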
